A study of Mus musculus with 23 samples.

Results

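Tuft cells are a rare chemosensory lineage of the intestinal epithelium, and 9 genes that mark them, Dclk1, Trpm5, Pou2f3, Il25, Gfi1b, Ptgs1, Avil, Alox5 and Alox5ap, were followed here across diets in the mouse colon. They were taken by gene symbol from the 24917 loci of the count table, and each symbol had 1 locus. The samples were colonic epithelium of male C57BL/6 mice (C57BL/6J in the study's methods) put on their diets at 6 weeks of age, measured by ribosomal-RNA-depleted (Ribo-Zero) RNA-seq in 2 batches. LF mice ate a low-fat diet (10% fat) for 43 weeks, HF mice a high-fat diet (60% fat) for 43 weeks, and HF-LF mice were fed high fat during the first 15 weeks before 28 weeks of low fat. Batch 1 held 4 LF, 3 HF and 4 HF-LF samples, and batch 2 held 4 LF, 3 HF and 5 HF-LF samples. The 8 LF, 6 HF and 9 HF-LF samples each outnumber the mice that the study's methods give for a regimen, and nothing shows that each came from its own mouse, so that the p-values measure the spread between samples, which may be technical in part.

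Tuft cells sense luminal metabolites through a taste-like cascade in which a G protein activates phospholipase C and calcium release opens the cation channel Trpm5. Their fate depends on the POU-domain transcription factor Pou2f3, and in the small intestine they release the cytokine IL-25 and arachidonic acid products that act on group 2 innate lymphoid cells. Dclk1 is a microtubule-associated kinase used as their standard marker, Avil is an actin-binding protein of their tuft of microvilli, and Gfi1b is a transcriptional repressor found in them but also in erythroid and megakaryocytic cells. Ptgs1 (cyclooxygenase 1), Alox5 (5-lipoxygenase) and Alox5ap (its activating protein) act in the synthesis of prostaglandins and leukotrienes, and leukocytes express them too.

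No member passed the test in any diet comparison of either batch. For HF versus LF and HF-LF versus HF in batch 2, 1069 (7.44%) and 2084 (14.5%) of all genes tested did. At these shares, 0 calls among 8 members is near the background. Without the second HF sample of batch 2, the calls over all genes fell to 15 and 11. Of the 9 members, 8 passed the filter on low counts in both batches, and Il25 did not. Calls came from edgeR's quasi-likelihood test within a batch and needed a fold above 1.2 together with a p under 0.05 after Benjamini-Hochberg adjustment across every tested gene. In batch 1, 0 of the 8 members were called for HF versus LF, against 0% of the 14428 genes tested, although 22.2% of genes (3198) had an unadjusted p under 0.05 there and none of the members did. The percentages of all genes called in batch 1 were 0% for HF-LF versus LF and 0.00693% for HF-LF versus HF. In batch 2, 7.44% of 14377 genes were called for HF versus LF, 0.00696% for HF-LF versus LF and 14.5% for HF-LF versus HF, and 0 of the 8 members in each. With all 23 samples in 1 fit and batch as a covariate, 18.1%, 0% and 10.3% of 14385 genes were called in the same 3 comparisons, again with 0 of the 8 members. In every within-batch comparison, the sample values of the groups overlapped for each of the 8 members. Over all tested genes, the groups did not overlap for 13.6% (HF versus LF), 2.41% (HF-LF versus LF) and 8.02% (HF-LF versus HF) in batch 1, and for 27.3%, 1.29% and 27% in batch 2.

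Levels of the members were compared with each other only after division by exon length (the union of annotated GENCODE M21 exons), as CPM (read counts scaled to the normalized library size) per kilobase. Trpm5 was the most abundant, with a median over the 23 samples of 6.78 CPM per kilobase (range 4.53 to 7.98), followed by Avil at 3.55 (3.05 to 4.37) and Dclk1 at 2.07 (1.70 to 2.59). Those 3 ranges did not overlap. Alox5 (1.59), Ptgs1 (1.55) and Alox5ap (1.48) came next in medians of CPM per kilobase, with ranges that overlapped one another and that of Dclk1. Pou2f3 had a median of 0.807 CPM per kilobase (0.596 to 1.11), Gfi1b 0.269 and Il25 0.158, and the ranges of the last 2 genes overlapped. The order depends on the annotated exons: Dclk1 has 13.8 kilobases of them, and Alox5ap 1.35. For scale, the epithelial adhesion gene Epcam lay between 1496 and 2193 CPM in the same samples, without division by length.

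**Figure D1:**
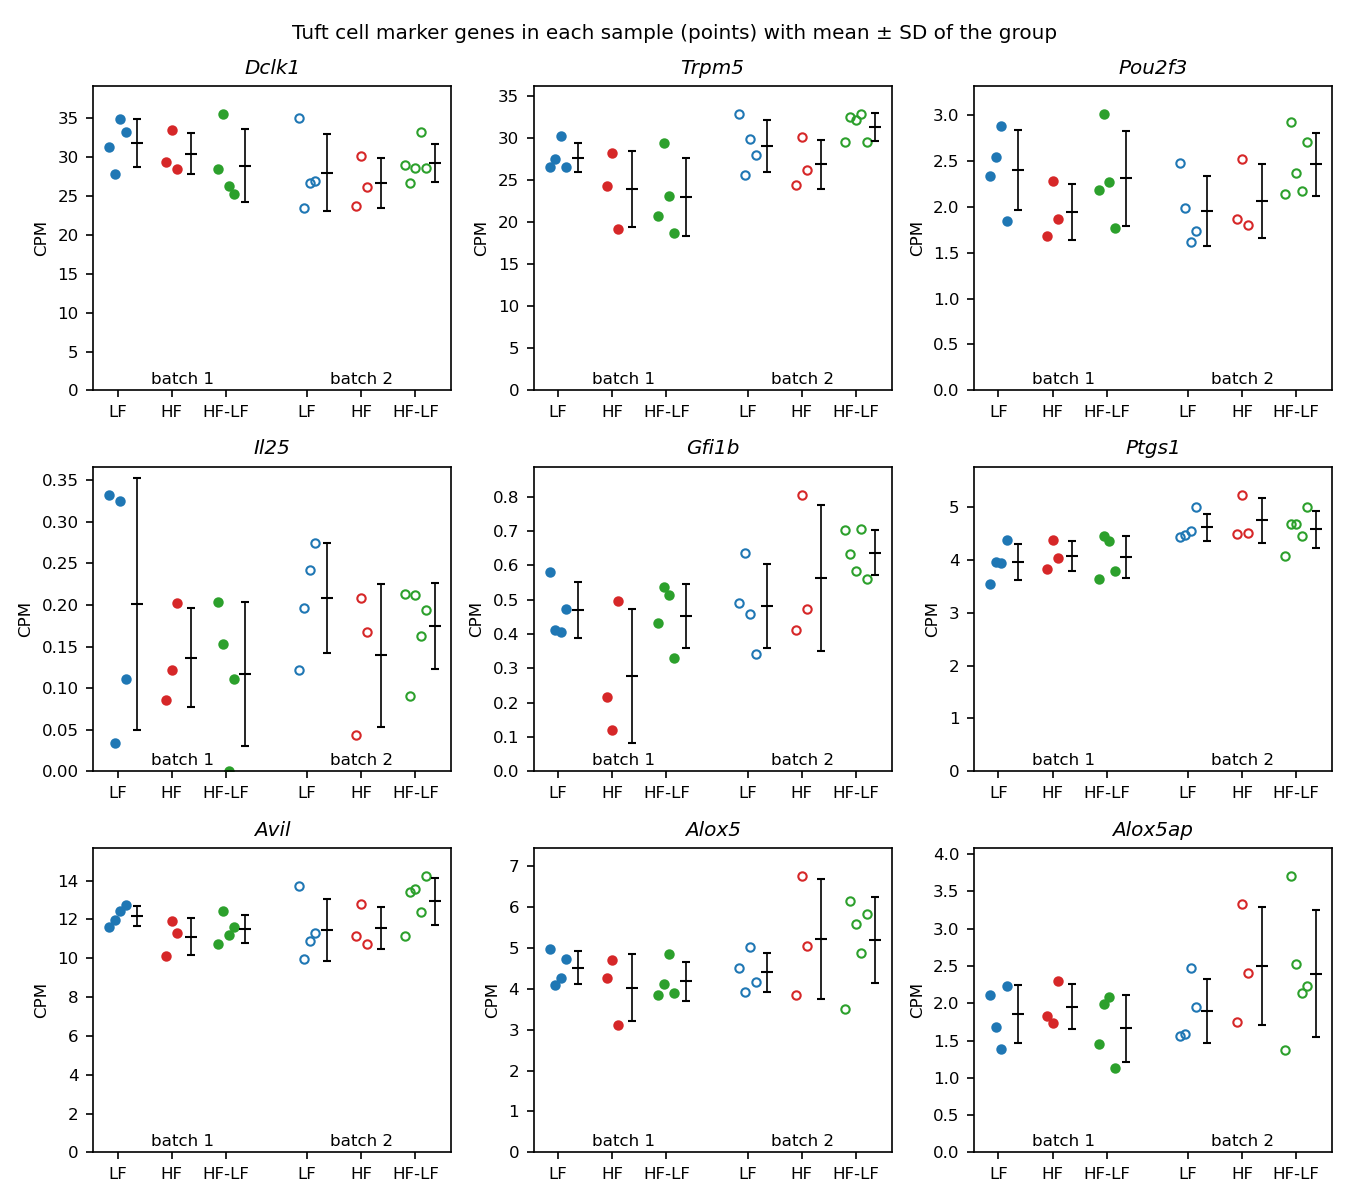
Levels of the 9 tuft cell marker genes in CPM (vertical axis, from 0) in each sample, by diet and batch (horizontal axis; filled circles are batch 1, open circles batch 2); black marks are the group mean with its SD. The diet groups overlap in every panel, and Trpm5 in batch 2 has its 5 HF-LF samples between 29.5 and 32.9 CPM.

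Trpm5, the channel at the end of the taste cascade (mm10 chr7:143071529-143094642), had the smallest adjusted p of the members within a batch. In batch 2, Trpm5 was 32.8, 25.6, 29.9 and 27.9 CPM in the LF samples, 24.4, 30.1 and 26.2 CPM in the HF samples and 29.6, 32.5, 32.2, 32.9 and 29.5 CPM in the HF-LF samples. All 5 HF-LF values were above 2 of the 3 HF values, and the second HF sample lay within them. The mean was 31.3 ± 1.65 CPM (SD, n = 5) in HF-LF and 26.9 ± 2.91 CPM (SD, n = 3) in HF, and the log2 fold change was 0.22 ± 0.09 (SE; 95% interval 0.04 to 0.40; adjusted p = 0.0766, edgeR), below the threshold of 0.26 that a fold of 1.2 sets. The same change was -0.06 ± 0.16 (SE; 95% interval -0.39 to 0.28; adjusted p = 0.897, edgeR) in batch 1 and 0.10 ± 0.09 (SE; 95% interval -0.10 to 0.30; adjusted p = 0.458, edgeR) with both batches. In batch 1, Trpm5 was 26.5, 27.5, 30.2 and 26.5 CPM in the LF samples, 24.3, 28.3 and 19.2 CPM in the HF samples and 20.7, 29.4, 23.1 and 18.7 CPM in the HF-LF samples. There the HF and HF-LF samples spread more widely than the LF samples, and the highest HF-LF sample was above 3 of the 4 LF samples. The log2 fold change of HF-LF against LF was -0.27 ± 0.14 (SE; 95% interval -0.58 to 0.04; adjusted p = 0.792, edgeR) in batch 1 and 0.11 ± 0.08 (SE; 95% interval -0.06 to 0.28; adjusted p = 1, edgeR) in batch 2. The difference between these effects was 0.37 ± 0.16 (SE; 95% interval 0.03 to 0.71; adjusted p = 0.651, edgeR), so that it did not pass the test over all genes. With both batches, the HF-LF against LF change of Trpm5 was -0.06 (95% interval -0.24 to 0.12) on the log2 scale.

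Dclk1 (chr3:55242526-55539068), the usual marker of the lineage, differed little in mean between diets. In batch 1, Dclk1 was 31.3, 27.8, 34.9 and 33.2 CPM in the LF samples, 29.4, 33.5 and 28.5 CPM in the HF samples and 28.5, 35.6, 26.4 and 25.3 CPM in the HF-LF samples. In batch 2, Dclk1 was 35.0, 23.5, 26.7 and 26.9 CPM in the LF samples, 23.7, 30.1 and 26.2 CPM in the HF samples and 29.1, 26.6, 28.6, 33.3 and 28.6 CPM in the HF-LF samples. The highest and the lowest LF samples of batch 2 enclosed all HF and HF-LF samples. For HF versus LF the log2 fold change of Dclk1 was -0.06 (95% interval -0.33 to 0.21) in batch 1 and -0.07 (95% interval -0.33 to 0.18) in batch 2. With both batches its interval was the narrower -0.25 to 0.12 around -0.07. In bulk epithelium, fewer tuft cells and less RNA of a gene per tuft cell cannot be told apart.

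Pou2f3 (chr9:43123939-43205755), the transcription factor on which the lineage depends, was measured at 60 to 125 counts a sample. In batch 2, Pou2f3 was 2.48, 1.99, 1.62 and 1.74 CPM in the LF samples, 1.86, 2.52 and 1.80 CPM in the HF samples and 2.14, 2.93, 2.37, 2.17 and 2.70 CPM in the HF-LF samples. The HF-LF samples of batch 2 were above 3 of the 4 LF samples, and 2 of them were above the remaining one as well. The log2 fold change of HF-LF against LF was 0.34 ± 0.17 (SE; 95% interval -0.02 to 0.69; adjusted p = 1, edgeR) in batch 2 and -0.05 (95% interval -0.51 to 0.40) in batch 1. Against HF, the HF-LF change of Pou2f3 was 0.25 (95% interval -0.24 to 0.75) in batch 1 and 0.26 (95% interval -0.11 to 0.64) in batch 2, similar in size but past the test in neither. With both batches it was 0.27 ± 0.14 (SE; 95% interval -0.02 to 0.56; adjusted p = 0.173, edgeR).

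Gfi1b (chr2:28609450-28621982) had the largest fitted change of the 8 members and, in batch 1, the widest intervals, on 4 to 31 counts a sample. In batch 1, Gfi1b was 0.582, 0.412, 0.407 and 0.474 CPM in the LF samples, 0.216, 0.122 and 0.496 CPM in the HF samples and 0.432, 0.536, 0.513 and 0.332 CPM in the HF-LF samples. The first and second HF samples were below all LF samples and the third was above 3 of them. The log2 fold change of HF against LF in batch 1 was -0.72 ± 0.41 (SE; 95% interval -1.60 to 0.17; adjusted p = 0.299, edgeR). With limma voom and sample weights in place of edgeR it was -1.08 (adjusted p = 0.0349), which passed both thresholds, and no other alternative called it. With 1 sample left out, the change lay between -1.41 (without the third HF sample) and -0.40 (without the second HF sample), with adjusted p from 0.346 to 0.544 in edgeR. In batch 2 the same change was 0.20 (95% interval -0.40 to 0.80), and the difference between the batches was 0.92 ± 0.47 (SE; 95% interval -0.07 to 1.90; adjusted p = 0.777, edgeR). Gata1, which marks the erythroid and megakaryocytic cells that also use Gfi1b, had 5 counts over all 23 samples and was at 0 in 18 of them. Other erythroid and megakaryocytic genes of the same list were detected in every sample: Itga2b lay between 1.12 and 3.13 CPM, Alas2 between 0.162 and 3.55 CPM and Pf4 between 0.0797 and 0.647 CPM, and their part in the Gfi1b level was not tested.

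Il25 (chr14:54932695-54935836), the cytokine of the set, was near the limit of detection, with 0 to 12 counts a sample. The counts in batch 1 were 12, 1, 12 and 4 in LF, 4, 4 and 9 in HF and 8, 6, 0 and 4 in HF-LF. In batch 2 they were 4, 8, 9 and 12 in LF, 2, 8 and 11 in HF and 7, 3, 8, 6 and 9 in HF-LF. Summed within groups, Il25 lay between 0.118 CPM of the raw totals (HF-LF, batch 1; 95% Poisson interval 0.0701 to 0.187) and 0.215 (LF, batch 2; 0.148 to 0.302), intervals that overlap and cover counting error only. Without the low-count filter its log2 fold change for HF versus LF was -0.56 ± 0.74 (SE, adjusted p = 0.70, edgeR) in batch 1 and -0.58 ± 0.49 (SE, adjusted p = 0.485, edgeR) in batch 2. Neither passed the test. The type 2 cytokines downstream of it, Il4, Il5 and Il13, had 4, 3 and 1 counts over all samples.

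The diet groups of the eicosanoid enzymes and Avil overlapped too. Ptgs1 (chr2:36230426-36252271) ranged from 3.55 to 5.23 CPM over the 23 samples, and its HF versus LF log2 fold change was 0.04 (95% interval -0.28 to 0.36) in batch 1 and 0.04 (95% interval -0.19 to 0.27) in batch 2. Avil (chr10:127000709-127020994) ranged from 9.95 to 14.3 CPM and changed by -0.13 (95% interval -0.36 to 0.09) and 0.01 (95% interval -0.23 to 0.25) on the same scale in the same comparisons. For HF-LF versus LF in batch 2, Avil had a log2 fold change of 0.18 ± 0.10 (SE; 95% interval -0.03 to 0.39; adjusted p = 1, edgeR). Alox5 and Alox5ap lie at chr6:116410071-116461178 and chr5:149265058-149288047. In batch 2, Alox5ap was 1.56, 1.59, 2.48 and 1.95 CPM in the LF samples, 1.75, 3.33 and 2.40 CPM in the HF samples and 1.37, 3.71, 2.53, 2.14 and 2.22 CPM in the HF-LF samples. One HF-LF sample was the lowest and another the highest of the batch. The HF versus LF log2 fold changes in batch 2 were 0.24 (95% interval -0.17 to 0.66) for Alox5 and 0.39 (95% interval -0.22 to 0.99) for Alox5ap, with the reverse sign for Alox5 in batch 1 at -0.16 (95% interval -0.54 to 0.21). Summed over 12 leukocyte markers, the level in batch 2 was 25.4 to 33.9 CPM in LF, 24.2 to 27.7 in HF and 29.4 to 32.6 in HF-LF samples, and the part of leukocytes in the Alox5 and Alox5ap levels was not tested.

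**Figure D2:**
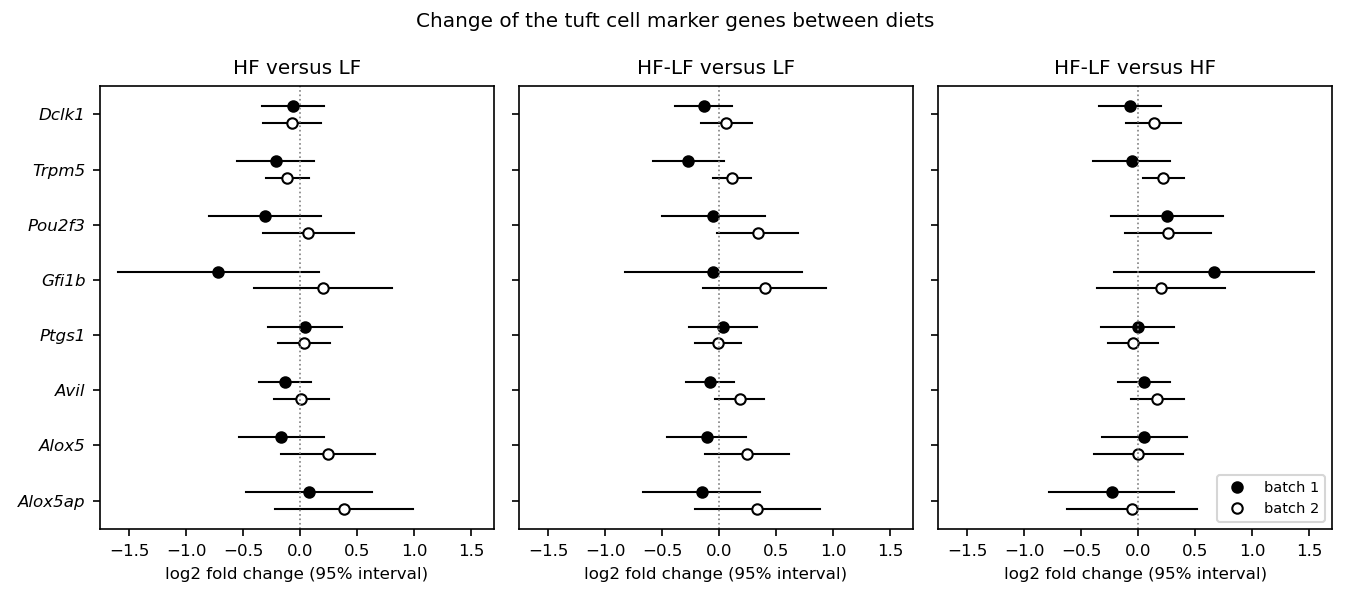
Log2 fold change (horizontal axis) with its 95% interval for the 8 members that passed the low-count filter (vertical axis), in 3 diet comparisons, with batch 1 as filled and batch 2 as open circles. Of the 48 intervals, that of Trpm5 for HF-LF versus HF in batch 2 (0.04 to 0.40) leaves out 0, and the widest is that of Gfi1b for HF versus LF in batch 1 (-1.60 to 0.17).

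Across samples the members varied together within diet groups. After the mean of each diet and batch was subtracted from log2 CPM, 24 of the 28 pairs of members had a Pearson's r above 0 over the 23 samples, with a median r of 0.35. Values of 1 sample share a library and its depth, and these correlations are a description. Dclk1 and Trpm5 were the most alike pair (r = 0.75; 0.77 in batch 1 and 0.82 in batch 2). Trpm5 and Pou2f3 had r = 0.64, and Ptgs1 and Avil r = 0.59. Alox5 and Alox5ap, partners in leukotriene synthesis, had r = 0.67, made of 0.19 in batch 1 and 0.89 in batch 2. The 7 pairs with Gfi1b, singled out after the values were seen, had a median r of -0.07, and the other 21 pairs were all above 0 with a median of 0.47.

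**Figure D3:**
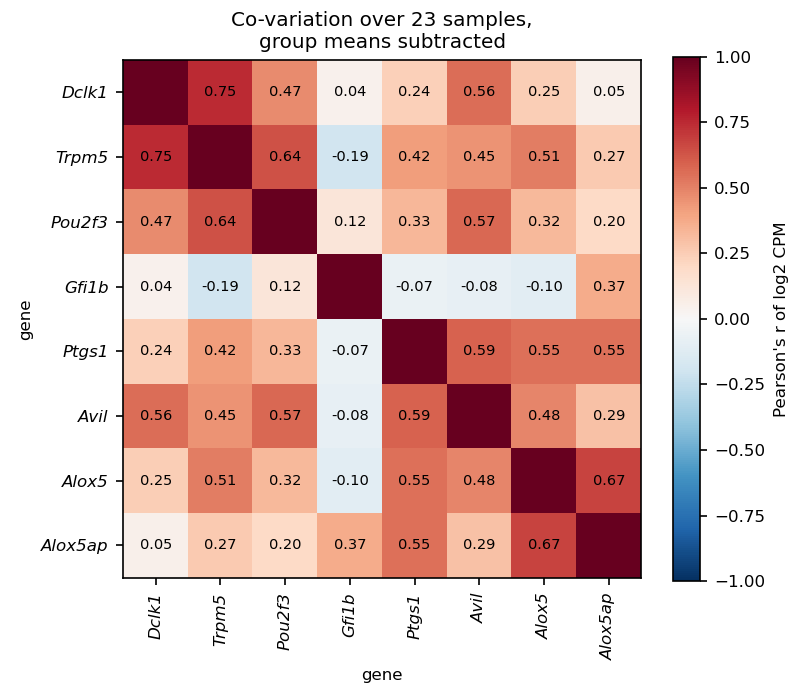
Pearson's r of log2 CPM between each pair of the 8 members (both axes) over 23 samples after subtraction of diet-and-batch means; red is positive and blue negative. The row of Gfi1b is pale, with r between -0.19 and 0.37, and Dclk1 with Trpm5 is the strongest cell at 0.75.

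The sequences before the starts of 6 members were at hand in RefSeq (GRCm38.p6, the assembly of mm10), and Pou2f3, Il25 and Alox5ap were not among them. They are shown for Avil and Trpm5 because Pou2f3 and its relatives bind the octamer ATGCAAAT, and both genes varied with Pou2f3 here. Capitals mark matches to the first 7 letters of the octamer, ATGCAAA, on either strand, in the 250 bases before the start.
Avil, chr10:127000459-127000708, plus strand: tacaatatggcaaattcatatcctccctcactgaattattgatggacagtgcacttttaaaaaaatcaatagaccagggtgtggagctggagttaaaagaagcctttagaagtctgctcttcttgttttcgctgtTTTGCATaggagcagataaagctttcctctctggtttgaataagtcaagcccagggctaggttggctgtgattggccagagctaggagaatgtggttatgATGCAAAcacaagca
Trpm5, chr7:143094643-143094892, minus strand: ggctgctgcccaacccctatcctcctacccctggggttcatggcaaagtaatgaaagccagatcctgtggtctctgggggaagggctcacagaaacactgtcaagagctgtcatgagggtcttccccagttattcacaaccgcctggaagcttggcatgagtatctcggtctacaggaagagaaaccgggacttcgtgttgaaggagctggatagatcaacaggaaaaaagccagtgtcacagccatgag
Avil had 2 such matches, 115 and 15 bases before the start, and Trpm5 none. Of the 32851 promoters in the table, 4.12% hold the 7 letters in this window, as does 1 of the 7 member promoters, that of Avil, and 1.60% hold the whole octamer, which none of the 7 (6 genes, Dclk1 with 2 starts) did. A match is a description of letters and not of binding.

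The genes most like the set in this within-group variation included other tuft cell genes. Among 14172 genes ranked by r with the mean of the 8 standardized members, the first were Matk (r = 0.81), a kinase of the published tuft signature, Sh2d7 (0.80), an adaptor of the same signature, and Pik3r5 (0.80), a regulatory subunit of phosphoinositide 3-kinase gamma. Akt1s1, Rnf126, Klrb1c, Agt, Fhl2, Wscd1 and Ddx41 completed the first 10, with r down to 0.70. Klrb1c and Wscd1 were low, at means of 0.409 and 0.678 CPM, and Fhl2 had r = 0.24 in batch 1 and 0.89 in batch 2. An r above 0.5 was found for 10 of 32 other tuft cell genes (31.2%) and for 222 of all genes ranked (1.57%). With the batch mean alone subtracted, 3 of the first 10 genes were still among the first 10, while Akt1s1 fell to rank 1421 and Agt to rank 921.

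Other genes of the tuft cell program were grouped into taste signalling, eicosanoid synthesis, regulators and remaining signature genes, 41 in all, of which 32 passed the filter. In batch 1 none of the 32 were called in any comparison. In batch 2, 2 of 32 were called lower in HF than in LF, against 4.4% of all genes called lower, and 4 of 32 were called higher in HF-LF than in HF, against 8.89% of all genes called higher, so that the counts are near the background. The median log2 fold change of the 32 was 0.04 and -0.03 in these comparisons, and -0.01 and 0.01 over all genes tested. With both batches in 1 fit, 4 of the 32 were higher in HF than in LF (Pla2g4a, Bmx, Rgs13 and Gnat3, log2 fold changes 0.28 to 0.54) and 3 were lower (Itpr3, Plcb2 and Sox4, -0.41 to -0.33), against 9% of all genes called higher and 9.11% called lower. In HF-LF against HF, Itpr3, Plcb2 and Tas1r3 were the 3 of 32 called higher with both batches, against 5.44% of all genes called higher. Of 12 genes of the type 2 immune circuit around IL-25, 7 were tested and 0 were called in either batch.

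Of the 4 taste signalling genes tested, 3 rose in HF-LF against HF in batch 2, where 8.89% of all genes were called higher. This group is part of the wider list above, whose calls together were near the background. Plcb2, the phospholipase of the cascade, was 3.16, 3.43 and 3.41 CPM in HF, 4.61, 4.80, 5.66, 5.70 and 4.84 CPM in HF-LF and 5.78, 4.24, 4.42 and 3.78 CPM in LF. Its HF samples lay below all others of the batch. Over all genes, the groups did not overlap for 27.3% in HF versus LF and 27% in HF-LF versus HF. Plcb2 was not called in HF against LF, at -0.44 ± 0.14 log2 units (SE, edgeR adjusted p = 0.0611). The log2 fold change of HF-LF against HF was 0.62 ± 0.14 log2 units (SE, edgeR adjusted p = 0.0156). Tas1r3, a taste receptor subunit whose locus shares 34 bases with Dvl1, rose by 0.49 ± 0.13 log2 units (SE, edgeR adjusted p = 0.0258). Itpr3, the calcium release channel, rose by 0.33 ± 0.08 log2 units (SE, edgeR adjusted p = 0.0222) and was lower in HF than in LF at -0.34 ± 0.09 log2 units (SE, edgeR adjusted p = 0.0382). Its level of 363 to 560 CPM in batch 2 was far above that of Plcb2 and Tas1r3, and other epithelial cells are known to express this channel. Gnat3, the taste G protein, was the exception at -0.21 ± 0.19 log2 units (SE, edgeR adjusted p = 0.437). These comparisons share the HF samples. In within-group variation, Pearson's r with the mean of the standardized members was 0.55 for Plcb2 and 0.41 for Gnat3. It was -0.05 for Tas1r3 and -0.12 for Itpr3. Within batch 2, r was 0.47 for Plcb2, 0.54 for Gnat3, -0.39 for Tas1r3 and -0.50 for Itpr3. Whether the rises arose in tuft cells was not tested. Without the second HF sample of batch 2 all 3 rises missed the threshold, that of Tas1r3 also without the third HF or the first HF-LF sample or HF-LF sample 4, and the Itpr3 difference between HF and LF without any 1 of 6 samples. Over all samples left out, the log2 fold changes of the 3 rises stayed between 0.27 and 0.65, with adjusted p up to 0.158 in edgeR.

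Fyb, an adaptor found in tuft cells and in leukocytes, was higher in HF-LF than in HF by 0.36 ± 0.12 log2 units (SE, edgeR adjusted p = 0.0476), a call that was lost when any 1 sample was left out (adjusted p from 0.0548 to 0.163, edgeR). Of 9 leukocyte genes tested, the T cell genes Cd3e and Itgae were the 2 called higher in the same comparison, against 8.89% of all genes. They rose by 0.94 ± 0.30 log2 units (SE, edgeR adjusted p = 0.0422) and 0.45 ± 0.12 log2 units (SE, edgeR adjusted p = 0.0248). Cd3e was at 6 to 23 counts a sample in batch 2. With 1 sample left out, the Cd3e call was lost in 7 of 8 fits and the Itgae call in 4 of 8. The part of both genes in the Fyb change was not tested. Sox4, a transcription factor linked to tuft cell differentiation, was lower in HF than in LF at -0.29 ± 0.08 log2 units (SE, edgeR adjusted p = 0.0382). It was 38.2, 30.2, 32.4 and 35.2 CPM in LF and 27.2, 28.6, 27.2, 27.1 and 28.8 CPM in HF-LF, and all 3 HF samples, like the HF-LF samples, were below the lowest LF sample. The groups did not overlap for 27.3% of all genes in HF versus LF and for 1.29% in HF-LF versus LF. Sox4 was not called in HF-LF versus LF, at -0.29 ± 0.07 log2 units (SE, edgeR adjusted p = 0.491). The Sox4 call was lost without any 1 of the HF samples and without the first or the third LF sample (adjusted p from 0.0331 to 0.159 over the samples left out, edgeR).

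Some markers of other epithelial lineages were called in batch 2. Of all genes, 7.44% were called there for HF versus LF and 14.5% for HF-LF versus HF. In HF against LF the enteroendocrine hormones Pyy and Gcg rose by 0.55 ± 0.09 log2 units (SE, edgeR adjusted p = 0.0106) and 0.60 ± 0.14 log2 units (SE, edgeR adjusted p = 0.0293), and the goblet cell gene Tff3 by 0.63 ± 0.14 log2 units (SE, edgeR adjusted p = 0.028). Pyy and Gcg were the 2 of 6 enteroendocrine genes called there, and 5 of the 6 were above 0. Chga was at 0.05 ± 0.10 log2 units (SE, edgeR adjusted p = 0.756) and Neurod1 at -0.02 ± 0.14 log2 units (SE, edgeR adjusted p = 0.942). Tff3 was the 1 of 7 goblet cell genes called there, and in HF-LF against HF 2 of the 7, Tff3 at -0.47 ± 0.13 log2 units (SE, edgeR adjusted p = 0.0292) and Agr2, were called lower. The goblet cell mucin gene Muc2 was called in neither, at -0.56 ± 0.20 log2 units (SE, edgeR adjusted p = 0.0766) and 0.42 ± 0.19 log2 units (SE, edgeR adjusted p = 0.122), nor was Clca1, at -0.16 ± 0.21 log2 units (SE, edgeR adjusted p = 0.623) and 0.39 ± 0.20 log2 units (SE, edgeR adjusted p = 0.163). In HF-LF against HF, Pyy changed by -0.69 ± 0.08 log2 units (SE, edgeR adjusted p = 0.00202), the 1 call among these genes that no left-out sample removed. The Wnt target Axin2 was lower in HF than in LF at -0.39 ± 0.10 log2 units (SE, edgeR adjusted p = 0.0373), and Smoc2 was higher by 0.35 ± 0.10 log2 units (SE, edgeR adjusted p = 0.0491). Of the 5 stem cell genes tested, 1 was thus called lower and 1 higher. Lgr5, at -0.10 ± 0.10 log2 units (SE, edgeR adjusted p = 0.514), and Ascl2, at 0.36 ± 0.14 log2 units (SE, edgeR adjusted p = 0.0898), were not called. Rnf43 rose by 0.34 ± 0.10 log2 units (SE, edgeR adjusted p = 0.0364) and Agr2 changed by -0.49 ± 0.16 log2 units (SE, edgeR adjusted p = 0.0456) in HF-LF against HF. In that comparison 2 of the 5 stem cell genes were called higher and 1 lower. None of the 10 stromal and muscle genes tested was called, with summed levels in batch 2 of 24.0 to 71.8 CPM in LF, 14.4 to 29.2 in HF and 17.8 to 47.0 in HF-LF samples. In batch 2, however, 0 of the 10 were above 0 for HF versus LF, with a median log2 fold change of -1.32 (-2.48 to -0.03). For HF-LF versus HF, 9 of the 10 were above 0, with a median of 0.50. The part of these genes in the changes above was not tested. Of 3 erythroid and platelet genes tested, 1 was called in each of these comparisons, beside Gata1 counts at or near 0. Alas2 was higher in HF than in LF by 1.85 ± 0.49 log2 units (SE, edgeR adjusted p = 0.0395), with Pf4 at 0.56 and Itga2b at -0.17, both not called. Itga2b was higher in HF-LF than in HF by 0.55 ± 0.17 log2 units (SE, edgeR adjusted p = 0.0381). Alas2 and Pf4 had the reverse sign there, at -0.996 and -0.729 log2 units, both not called. Every other batch 2 call on a listed gene was lost without the second HF sample, where the calls over all genes fell from 1069 to 15 for HF versus LF and from 2084 to 11 for HF-LF versus HF.

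**Figure D4:**
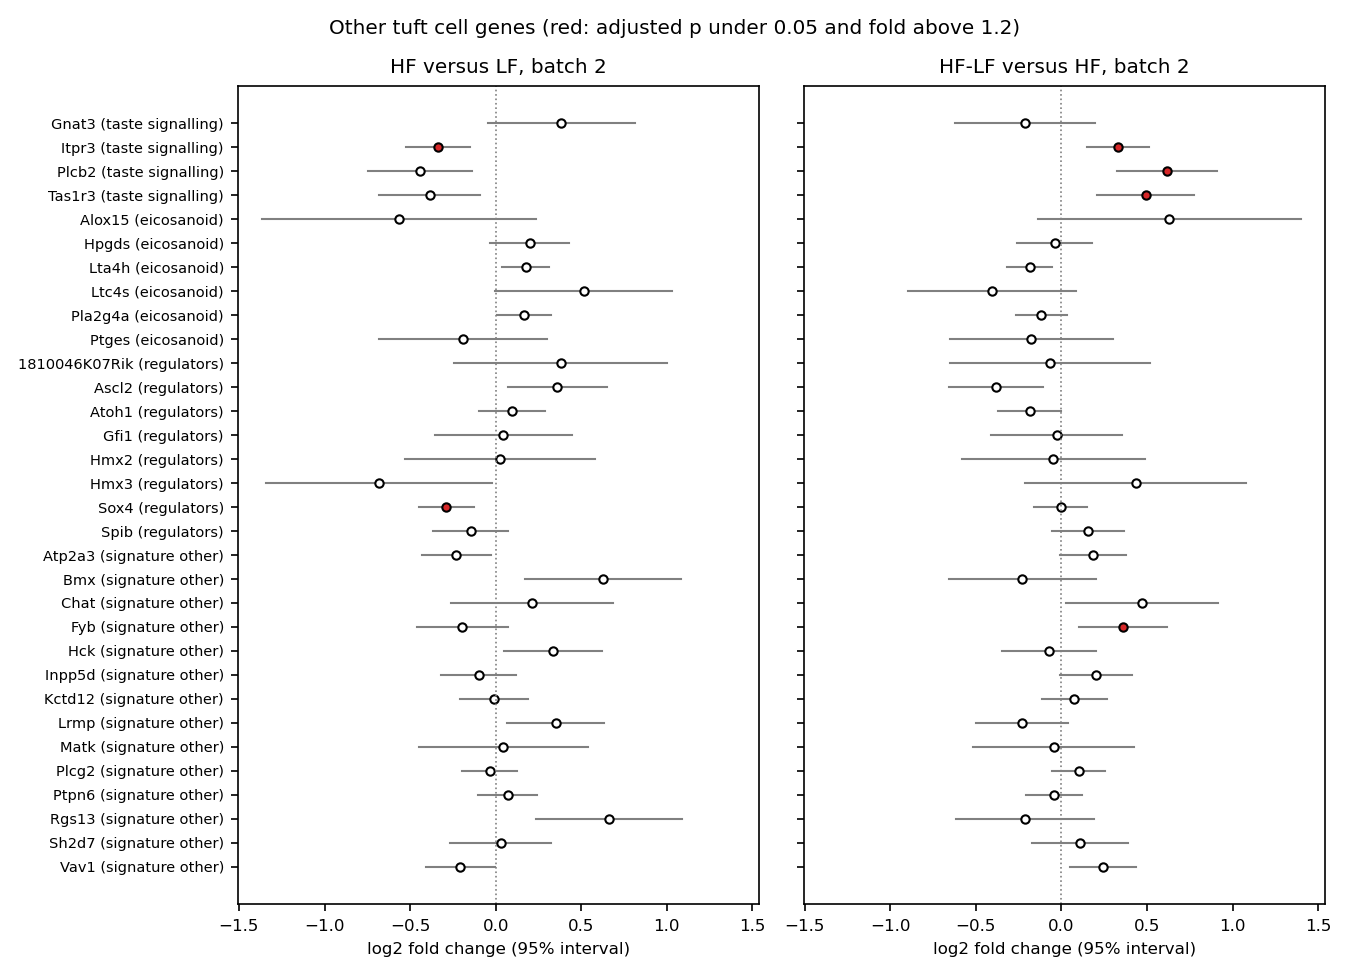
Log2 fold change (horizontal axis) with its 95% interval for the 32 other tuft cell genes tested in batch 2 (vertical axis, with the gene group in brackets), for HF versus LF and HF-LF versus HF; red points passed both thresholds. Red are Itpr3 and Sox4 on the left and Itpr3, Plcb2, Tas1r3 and Fyb on the right.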

How the data were processed

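The authors trimmed the Ribo-Zero reads with cutadapt 1.2.1, aligned them to mm10 with STAR 2.5 and counted them per gene with featureCounts 1.5.0-p1 of the Subread package, per the labels and the study's methods, and deposited raw counts. Library totals were 29189922 to 46498521 counts in batch 1 and 31607019 to 65320947 in batch 2, so that 3 counts equal 0.0459 to 0.103 CPM. Here, counts were filtered with filterByExpr, normalized by TMM and tested with edgeR 4.0.16 in R 4.3.3, with the 3 diets in 1 fit per batch, then over both batches with batch as a covariate, and for the interaction of diet and batch. CPM use the TMM library sizes of each batch. For correlations, log2 CPM had a prior count of 2. All 9 members were named, and from each other list at most 4 genes called within a batch. Further list genes, called only with both batches or not called, were named beside them outside this rule. The members and lists were chosen with earlier results of these data known. Alternatives were RLE normalization, no filter, DESeq2 1.42.0, limma 3.58.1 voom with sample weights, the compared pair of groups alone, a replicate block and each sample left out. Scripts were tested on simulated data. Strand use in counting was not given in the sources used here. No member shares bases with another locus of the table. Same-numbered samples of a batch were checked for pairing: 4 of 10 such pairs in each batch had a correlation of deviations above 0.1. Among pairs with other numbers and other diets it was 8 of 30 in batch 1 and 9 of 37 in batch 2. The median r was 0.0717 and 0.0783 for same-numbered pairs, and -0.0238 and -0.0394 for the others. The check does not settle whether the numbers mark pairs. The main tests had no replicate block because no label states what a shared number means. Replicates of a group differed by more than sampling noise.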

Additional observations from a re-analysis of the deposited data

Results flagged for a closer look

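Over 56 groups of 4 or 5 samples (the 9 members and the 5 other tuft cell genes called within a batch), 1 held a sample that stood apart by Dixon's criterion at the 95% level, where chance gives about 5% of groups, and 0 of the members did. Plcb2 was 7.43 CPM in the second HF-LF sample of batch 1 and no more than 4.604 CPM in the other 3.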

How the results depend on the processing

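The count of members called stayed at 0 in all comparisons and alternatives run, except for HF versus LF in batch 1 under limma voom with sample weights, where it was 1 (Gfi1b at -1.08); the cause was not tested. With the replicate block it was 0 in every comparison, and the block moved the calls over all genes from 0 to 92 for HF versus LF in batch 1 and from 1069 to 2080 in batch 2. Of 416 member log2 fold changes under the alternatives that keep all samples, 402 kept their sign and side of the threshold and 13 changed sign, all near 0: with limma voom with sample weights, -0.0173 for Ptgs1 (HF versus LF, batch 1), -0.0339 for Alox5 (HF-LF versus HF, batch 1), 0.0196 for Ptgs1 (HF-LF versus HF, batch 1), 0.00922 for Ptgs1 (HF-LF versus HF, batch 2), 0.0278 for Ptgs1 (HF-LF versus HF, both batches), 0.0202 for Ptgs1 (HF-LF versus LF, batch 2), 0.0234 for Dclk1 (HF-LF versus LF, both batches). Others were, with DESeq2, 0.00177 for Ptgs1 (HF-LF versus HF, batch 1), -0.0103 for Alox5 (HF-LF versus HF, batch 2). Others were, with no low-count filter, -0.0172 for Alox5 (HF-LF versus HF, batch 2). Others were, with replicate block, -0.0250 for Alox5 (HF-LF versus HF, batch 2), -4.08e-05 for Ptgs1 (HF-LF versus LF, both batches). Others were, with RLE normalization, -0.00788 for Alox5 (HF-LF versus HF, batch 2). Of 368 values with 1 sample left out, 38 changed sign and none were called. For HF versus LF, batch 1, the ranges were -0.0494 to 0.18 for Alox5ap, -0.00765 to 0.10 for Ptgs1. For HF versus LF, batch 2, the ranges were -0.0542 to 0.11 for Avil, -0.16 to 0.0509 for Dclk1, -0.10 to 0.37 for Gfi1b, -0.0781 to 0.20 for Pou2f3, -0.0277 to 0.0775 for Ptgs1. For HF-LF versus HF, batch 1, the ranges were -0.11 to 0.18 for Alox5, -0.0111 to 0.10 for Avil, -0.0489 to 0.0486 for Ptgs1, -0.20 to 0.0770 for Trpm5. For HF-LF versus HF, batch 2, the ranges were -0.17 to 0.21 for Alox5, -0.27 to 0.18 for Alox5ap, -0.0889 to 0.0111 for Ptgs1. For HF-LF versus LF, batch 1, the ranges were -0.14 to 0.0807 for Gfi1b, -0.20 to 0.0578 for Pou2f3, -0.00932 to 0.0929 for Ptgs1. For HF-LF versus LF, batch 2, the ranges were -0.0135 to 0.19 for Dclk1, -0.0482 to 0.0304 for Ptgs1. Calls over all genes for HF versus LF were 0, 514 and 2422 in batch 1 and 1069, 1841 and 1991 in batch 2 with edgeR, DESeq2 and voom. For HF-LF versus LF, edgeR gave 0 and DESeq2 6 in batch 1, and 1 and 15 in batch 2, and for HF-LF versus HF in batch 1 they gave 1 and 17. Leaving out 1 sample gave 0 to 1352 calls for HF versus LF in batch 1 (1352 without the second HF sample), 15 to 2560 in batch 2 (2560 without the fourth LF sample), and 11 to 2778 for HF-LF versus HF in batch 2. Il25 had 0 to 12 counts a sample and Gfi1b 4 to 31, and the intervals of the members allow changes that the tests did not call.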
